A study of Mus musculus with 8 samples.

Results

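Fasl, Kcnk5, Ptprj, Cd28, Celsr1, Etv3, Lif, Gadd45g, Galnt3 and Acot7 are 10 mouse genes with many open-chromatin regions nearby that were found in control early T-lineage progenitors and not in progenitors labelled as knockout for Tcf7 and Lef1. They were chosen on chromatin alone. ATAC-seq peaks of 4 libraries were merged into regions wherever they shared at least 1 bp, and a region was called control-only when both control lists and neither knockout list held a peak there. Each of the 10 genes had 4 or more control-only regions for which its start was the nearest gene start within 50 kb. Of 24538 genes with a start, 26 met that rule (0.106%), and the 10 genes are among these 26. The rule does not say why these 10 of the 26 were taken, and they were chosen with earlier results of these data known. All 10 had enough RNA to be tested, against 10 of the other 16. Whether the choice of the 10 was independent of RNA is therefore not known. Because the rule used the ATAC contrast between genotypes, the regions are given below as a description without a test, and only RNA was tested.

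The knockout cells carried CreER, an oestrogen-receptor-fused Cre that tamoxifen activates, with floxed alleles of Tcf7 and of Lef1, and are labelled Tcf1Lef1KO. The control cells carried the same CreER with wild-type alleles. Both genotypes started as LSK progenitors from bone marrow, a stem and progenitor population that lacks lineage markers and carries Sca-1 and c-Kit. They were grown on OP9-DL1 stroma, which presents the Notch ligand Delta-like 1, and both received 4-hydroxytamoxifen on days 3 to 5, so the controls share the drug and the recombinase. On day 7 the c-Kit+ fraction of DN1, the stage before CD4, CD8 or CD25 appear, was sorted as CD44-high cells without CD25. Each genotype gave 2 RNA libraries and 2 ATAC libraries, 8 in all. The promoter behind CreER, the age and sex of the donors and any pooling are not given in the labels. Nothing there says that replicates came from separate animals or cultures, so the p-values below measure only the spread between these libraries, which may be technical.

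TCF1 and LEF1, the products of Tcf7 and Lef1, are HMG-box transcription factors that bind DNA in T-cell progenitors, act with beta-catenin or Groucho-type partners, and are required for normal entry into the T lineage. ATAC-seq marks DNA that a transposase can reach, which in most cells includes gene starts and distal enhancers. The 10 genes have unrelated roles. Fasl and Lif encode signalling ligands, Cd28, Ptprj, Celsr1 and Kcnk5 proteins of the cell surface, Etv3 and Gadd45g a transcriptional repressor and a stress-response protein, and Galnt3 and Acot7 enzymes.

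Tcf7 stood at 13.2 and 12.4 TPM (transcript abundance per length, scaled to the same total in each library) in the knockout libraries, against 518.5 and 509.6 TPM in the control libraries, a log2 change of −5.22 (SE 0.0560, limma adjusted p = 8.64e-06). Lef1 was low everywhere, at 1.46 and 1.57 TPM in knockout against 1.66 and 1.10 TPM in control, and its level did not pass the test (log2 change 0.09, limma adjusted p = 0.803). These RNA levels therefore do not show the loss of Lef1 that the label states. Between 13050 and 13314 genes reached 1 TPM per RNA library, and the ATAC lists held 109380 and 111007 peaks in knockout against 103009 and 105227 in control. Cell type markers moved with genotype, while over all 13228 genes tested 14.7% were called lower and 25.2% higher. The summed TPM of 12 T-lineage markers was 110 and 120 in knockout against 595 and 591 in control, with all 11 that could be tested lower and Cd3e listed at 0 in both knockout libraries. Among these, Cd3d, Cd3e, Cd3g and Bcl11b averaged under 1 TPM in knockout and could be tested only through the control libraries. The sum of 12 NK and innate lymphoid markers was 58.9 in each knockout library against 186 and 185 in control, with 5 of 6 tested lower. Of this sum, Gzma alone was 35.8 and 37.2 TPM in knockout against 134 and 126 TPM in control. Klrd1 was not called (log2 change 0.04), and Ncr1, Klrb1c, Eomes and Tbx21 were too low to be tested. Sums were higher in knockout for 14 stromal markers (2047 and 1726 against 854 and 875, 9 of 12 tested higher, with Dcn listed at 0 in every library), for 12 mast cell and basophil markers (572 in each against 266 and 259.6, 10 of 12 tested higher) and for 12 myeloid markers (3416 and 3362 against 1684 and 1657, 8 of 12 tested higher). The higher genes Postn and Fcer1a averaged under 1 TPM in control and could be tested only through the knockout libraries. Of the genes of the sort gate, Kit stood at 157 TPM in each knockout library against 251 and 238 in control, and Il2ra, which encodes CD25, at 0.658 and 0.393 TPM in knockout against 136 and 133 TPM in control, although both genotypes were sorted without CD25 at the surface. The part of these differences in cell make-up in the results on the 10 genes was not tested.

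The windows around the 10 genes, each the gene span plus 50 kb either side on the mm10 build, held 295 merged regions. Of these, 16 were knockout-only (5.42%) and 49 were control-only (16.6%), while 151 had a peak in all 4 lists and 79 had some other pattern. Over the whole genome, 6.63% of 134830 merged regions were knockout-only and 4.79% were control-only. The rule chose these genes for their control-only regions, and nothing is read from the difference between these shares. The rule itself counted 43 control-only regions, 5 each for Fasl, Kcnk5 and Ptprj and 4 for each of the other genes. Just outside it, 100 genes had 3 such regions. The starts of the 10 genes were nearest to 13 to 25 regions of any kind (median 18.5), against a median of 4 over all genes with at least 1 region.

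**Figure D1:**
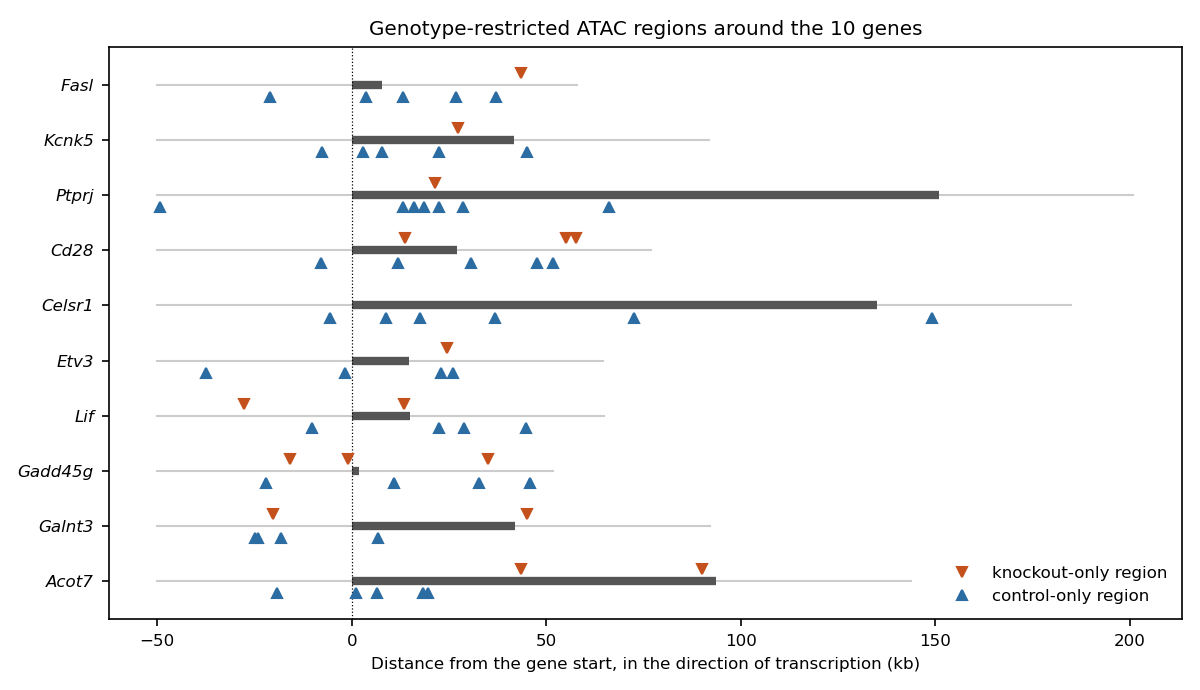
Position of the 16 knockout-only (orange, above each line) and 49 control-only (blue, below each line) regions, in kb from the gene start along the direction of transcription; the grey line is the window and the dark bar the gene span. No control-only region lies on the start of the gene whose window is drawn, and the blue triangles lie before, inside and beyond these genes.

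The starts of 8 of the 10 genes, all but Fasl and Lif, had a peak in all 4 lists. None of the 49 control-only regions reached the start of any of the 10 genes, counted from 250 bases before to 50 after it. They were spread over the windows, with 20 inside the gene span, 13 upstream and 16 downstream, and the regions counted by the rule lay at a median of 19.7 kb from the start. They were narrow, 150 to 467 bp wide with a median of 237 bp, against 240 bp for all control-only regions. Peak strength is given here as the −log10 q of the authors' peak caller, where higher is stronger. The weaker of the 2 control peaks had a median of 9.45 in these regions, against 9.003 over all control-only regions and 38.2 over the regions of the same windows that every list held. Only 10 of the 49 reached 20 in both control lists, and 27 were under 10 in at least 1. With every peak of all 4 lists required to reach 10, Kcnk5 and Gadd45g were the members with 4 or more nearest control-only regions. That cut also dropped weak knockout peaks, so both counts include regions that had a knockout peak before it. Among them, chr14:20223215-20223646 near Kcnk5 had a peak in all 4 lists (9.59 and 9.92 in knockout). Of the 49, 16 had another control-only region as a direct neighbour and 36 stood next to a region that all 4 lists held. Over all control-only regions, 12.5% had another as a direct neighbour. The rule asked for 4 or more such regions per gene, so nothing is read from this difference.

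**Figure D2:**
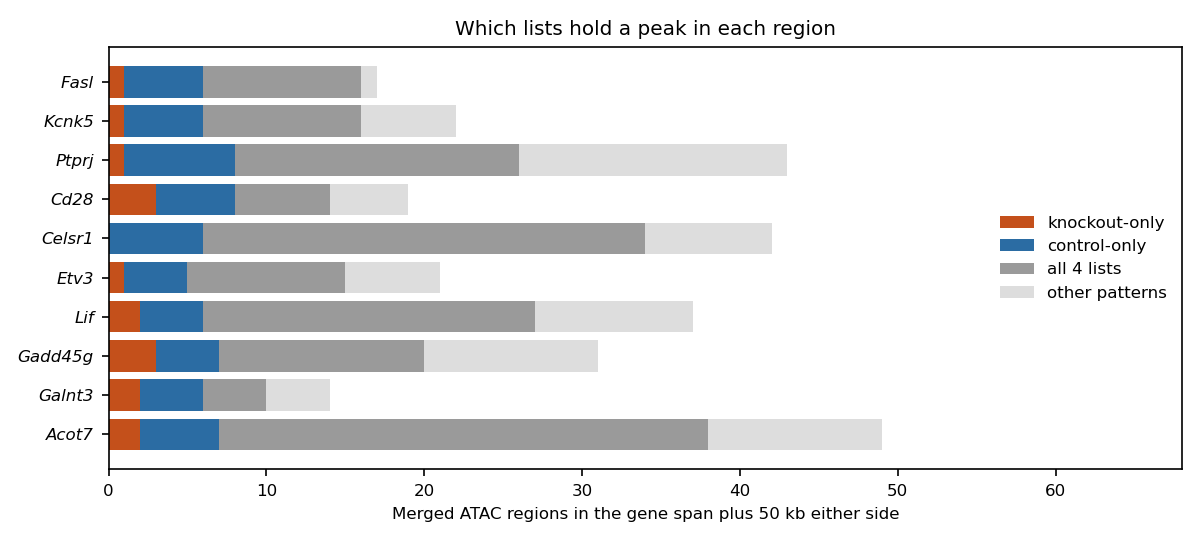
Number of merged ATAC regions in each gene's window by the lists that hold a peak (knockout-only, control-only, all 4 lists, other patterns). Control-only regions number 4 to 7 per window and knockout-only regions 0 to 3, beside 4 to 31 regions held by all lists.

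RNA of 6 of the 10 genes was lower in knockout, a count that was 3 without control library 1 and 3 without control library 2, where Cd28, Celsr1 and Ptprj lost their calls. Lif, Kcnk5 and Cd28 fell the most, Celsr1, Etv3 and Ptprj fell by less, and Fasl, Gadd45g, Galnt3 and Acot7 did not pass the test in either direction. Over all 13228 genes tested, 14.7% were called lower and 25.2% higher, and no member was called higher (limma; 0 also at an unadjusted p under 0.05). The median log2 change was −0.52 over the 10 genes and 0.09 over all genes tested. The knockout libraries both lay below both control libraries for the same 6 genes, a pattern that 29% of all genes tested showed. Cd28 and Lif averaged under 1 TPM in knockout and passed the filter on low values through the control libraries. Among the other 8 genes 4 were called lower, and their median was −0.31. In these bulk libraries, fewer cells of a type that uses a gene and less RNA of it per cell cannot be told apart.

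**Figure D3:**
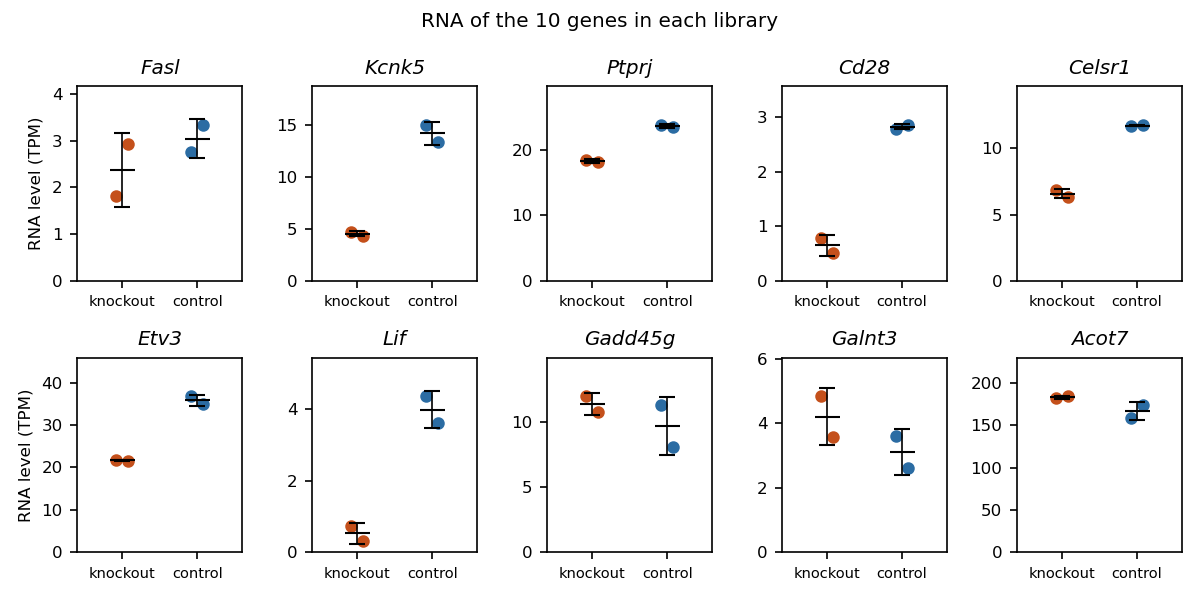
RNA level (TPM, linear axis from 0) of the 10 genes in each library, knockout left and control right; bars are the mean and SD of 2 libraries. Knockout points lie below control points for Kcnk5, Ptprj, Cd28, Celsr1, Etv3 and Lif, overlap them for Fasl, Gadd45g and Galnt3, and lie above them for Acot7 (182 and 184 against 159 and 174 TPM).

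Levels spanned a wide range. Acot7 had the highest TPM, with a mean over the 4 libraries above that of 94.98% of the genes tested, followed by Etv3 (62.3%), Ptprj (53.0%), Gadd45g (35.5%), Kcnk5 (33.1%) and Celsr1 (32.7%). Galnt3 (17.2%), Fasl (13.1%), Lif (10.4%) and Cd28 (6.97%) were among the low genes. The place of Acot7 is uncertain, since its deposited coverage was only 6.75% to 6.77% of the usual for its FPKM in the 4 libraries, and the part of this in its TPM was not tested. In the knockout libraries the order from the highest mean was Acot7, Etv3, Ptprj, Gadd45g, Celsr1, Kcnk5, Galnt3, Fasl, Cd28 and Lif, and the values of Kcnk5 and Galnt3 and of Cd28 and Lif overlapped. In the control libraries it was Acot7, Etv3, Ptprj, Kcnk5, Celsr1, Gadd45g, Lif, Galnt3, Fasl and Cd28, and each of the last 4 overlapped its neighbours in that order.

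Fasl encodes the death ligand that activated T cells and NK cells use to trigger apoptosis through Fas. Its window (gene at chr1:161780692-161788495, minus strand) held 17 regions, of which 11 had a peak in each knockout list against 15 and 16 in the control lists. The strongest of its 5 control-only regions, at chr1:161751266-161751692, lay 37.0 kb downstream of the start with a −log10 q of 41.3 and 40.5 in the control lists. Another lay upstream, at chr1:161809374-161809787, with 21.0 and 18.7. The start of Fasl had no peak in either knockout list and a peak in only 1 control list (−log10 q 10.4). RNA was low and variable, at 1.81 and 2.93 TPM in knockout against 2.75 and 3.33 TPM in control. The groups overlapped, and the means of 2.37 ± 0.794 TPM in knockout and 3.04 ± 0.413 TPM in control (SD, n = 2 each) were not separated by the test (log2 change −0.28, 95% interval −0.92 to 0.36, limma adjusted p = 0.42). The interval reaches from a fall larger than that of Celsr1 to a rise of 0.36 on the log2 scale.

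Lif encodes leukaemia inhibitory factor, a cytokine of the interleukin-6 family that signals through the LIF receptor and gp130 to STAT3. The surrounding window (gene at chr11:4257568-4272514, plus strand) held 37 regions, with a peak in 27 and 29 in the knockout lists against 30 and 32 in the control lists. Among its 4 control-only regions, chr11:4286280-4286612 stood out with a −log10 q of 47.4 and 46.4. It lay 28.9 kb beyond the start, outside the gene, and the other 3 ranged from 5.77 to 14.8. No list had a peak at the start itself, and the closest region held by all 4 lists was centred 1.34 kb into the gene, at chr11:4258703-4259117. Lif RNA was 0.742 and 0.318 TPM in knockout against 4.34 and 3.61 TPM in control. Both knockout libraries were far below both control libraries, and Lif had the largest fall of the 10 genes on both scales, 7.50-fold between means of 0.530 ± 0.300 TPM in knockout and 3.98 ± 0.518 TPM in control (SD, n = 2 each). The log2 change, which understates low genes because 1 was added to each TPM, was −1.71 (SE 0.264, limma adjusted p = 0.00587).

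Fasl and Lif are the members whose starts were not open in all 4 lists, so the 250 bases before each start are shown from RefSeq (GRCm38.p6, the assembly of mm10), 5′ to 3′ on the gene's strand. Capitals mark the motif letters searched for, on both strands. Fasl, chr1:161788496-161788745 (minus strand), held the ETS letters AGGAAG, here on the reverse strand, 25 bases before the start. Lif, chr11:4257318-4257567 (plus strand), held the E-box letters CAGCTG, directly followed by the AP-1 letters TGANTCA, and further on the RUNX letters TGTGGT.
Fasl: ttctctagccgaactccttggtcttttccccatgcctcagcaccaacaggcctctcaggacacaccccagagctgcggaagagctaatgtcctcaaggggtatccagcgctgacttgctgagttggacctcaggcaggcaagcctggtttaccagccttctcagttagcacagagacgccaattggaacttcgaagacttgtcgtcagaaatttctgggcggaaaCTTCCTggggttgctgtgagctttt
Lif: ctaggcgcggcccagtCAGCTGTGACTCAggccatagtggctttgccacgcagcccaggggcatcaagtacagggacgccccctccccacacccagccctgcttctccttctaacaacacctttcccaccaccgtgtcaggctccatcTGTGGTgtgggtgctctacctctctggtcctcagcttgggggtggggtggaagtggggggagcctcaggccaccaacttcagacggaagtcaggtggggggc
Of 32851 promoters of 300 bases in the table, 35.35% held the ETS letters, 16.3% the E-box letters, 7.808% the AP-1 letters and 16.76% the RUNX letters. Such a match describes the sequence and shows no bound factor.

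Cd28 encodes the co-stimulatory receptor of T cells for CD80 and CD86. Around it, the window (gene at chr1:60746388-60773359, plus strand) held 19 regions, with a peak in 10 in each knockout list against 15 and 12 in the control lists. It had 5 control-only regions and 3 knockout-only regions. The strongest control-only region of all 10 windows, chr1:60797853-60798179, lay 51.6 kb downstream of the Cd28 start with a −log10 q of 56.3 and 55.2, just too far to be counted by the rule. Next to it, chr1:60793801-60794064 had 32.2 and 22.2, and chr1:60776938-60777327 had 28.4 and 25.6. All 3 lay beyond the 3′ end of the gene, while the Cd28 start was open in all 4 lists (−log10 q of 158 and 155 in knockout, and 230.4 and 240.2 in control). Cd28 RNA was 0.794 and 0.518 TPM in knockout against 2.80 and 2.86 TPM in control, so the groups did not overlap. Means of 0.656 ± 0.195 TPM in knockout and 2.83 ± 0.0458 TPM in control (SD, n = 2 each) differed 4.31-fold (log2 change −1.21, SE 0.245, limma adjusted p = 0.0141). The call was lost without control library 1 (adjusted p = 0.0617), control library 2 (0.0634) or knockout library 2 (0.0533).

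Kcnk5 encodes a tandem-pore potassium channel that opens at alkaline pH and takes part in cell volume control. The window of the gene (chr14:20140058-20181782, minus strand) held 22 regions, with a peak in 12 and 16 in the knockout lists against 18 and 18 in the control lists. Its 5 control-only regions ran from 7.77 kb upstream of the start to 45.0 kb downstream. The strongest, chr14:20178811-20178992, lay inside the gene 2.88 kb from the start with a −log10 q of 18.3 and 15.9. The start was open in all 4 lists (−log10 q of 101 and 93.5 in knockout, and 86.8 and 104 in control). Kcnk5 RNA was 4.68 and 4.34 TPM in knockout against 15.0 and 13.4 TPM in control. The libraries of each genotype lay close together and far from the other genotype, with means of 4.51 ± 0.241 TPM in knockout and 14.2 ± 1.12 TPM in control (SD, n = 2 each), a 3.14-fold lower level (log2 change −1.46, SE 0.139, limma adjusted p = 0.0014). The 250 bases before its start, chr14:20181783-20182032 on the minus strand, held none of the 6 motifs searched, which besides those above were the TCF/LEF letters CTTTGA and the GATA letters AGATAA.
Kcnk5: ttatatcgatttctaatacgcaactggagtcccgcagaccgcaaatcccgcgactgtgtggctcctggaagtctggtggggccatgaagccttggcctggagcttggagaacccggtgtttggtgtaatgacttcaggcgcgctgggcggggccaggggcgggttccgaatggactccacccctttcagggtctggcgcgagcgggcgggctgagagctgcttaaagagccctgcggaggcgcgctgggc

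Celsr1 encodes an atypical cadherin with a membrane-spanning receptor domain that sets planar cell polarity. Its window (gene at chr15:85898758-86033777, minus strand) held 42 regions, with a peak in 32 and 33 in the knockout lists against 39 and 36 in the control lists, and it was the window without a knockout-only region. The strongest of its 6 control-only regions, chr15:85961178-85961521, lay inside the gene 72.4 kb from the start (−log10 q 25.4 and 25.0). It was too far from the start to be counted by the rule. Another of the 6, at the far end of the window, was nearest to the start of Trmu. In the 4 regions that the rule counted, the weaker control peak had a −log10 q of 5.23 to 10.2. The Celsr1 start was open in all 4 lists. Celsr1 RNA was 6.83 and 6.36 TPM in knockout against 11.7 and 11.8 TPM in control. The groups did not overlap, and means of 6.60 ± 0.338 TPM in knockout and 11.7 ± 0.0592 TPM in control (SD, n = 2 each) differed 1.78-fold (log2 change −0.75, SE 0.127, limma adjusted p = 0.00813). The call was lost without control library 1 (adjusted p = 0.0539) or control library 2 (0.0548).

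Ptprj encodes a receptor-type tyrosine phosphatase of haematopoietic and endothelial cells that acts on Src-family kinases. The surrounding window (gene at chr2:90429756-90580647, minus strand) was among the richest, with 43 regions and a peak in 30 and 28 in the knockout lists against 35 and 34 in the control lists. Of its 7 control-only regions, the most of any window, 5 lay within a stretch of the gene 13.2 to 28.5 kb from the start. The strongest inside the gene were chr2:90514263-90514646 (−log10 q 32.2 and 23.1) and chr2:90552027-90552306 (22.9 and 21.3). The first of these lay 66.2 kb from the start, too far to be counted by the rule. A region at the upstream edge of the window was nearest to the start of Nup160. Ptprj RNA was 18.5 and 18.1 TPM in knockout against 23.8 and 23.4 TPM in control. The difference was small but wider than the spread, with means of 18.3 ± 0.253 TPM in knockout and 23.6 ± 0.271 TPM in control (SD, n = 2 each), 1.29-fold lower (log2 change −0.35, SE 0.0853, limma adjusted p = 0.0255). The call was lost whichever library was left out, with adjusted p from 0.079 to 0.106.

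Etv3 encodes an ETS-family transcriptional repressor that has been linked to growth arrest of macrophages. Its window (gene at chr3:87525578-87540158, plus strand) held 21 regions, with a peak in 16 and 14 in the knockout lists against 15 and 18 in the control lists, so these counts overlapped. Its 4 control-only regions were mostly weak. The closest to the start, chr3:87523812-87523982, lay 1.68 kb upstream (−log10 q 8.38 and 5.75), and the strongest, chr3:87548244-87548538, lay 22.8 kb downstream of it (13.1 and 31.3). Etv3 RNA was 21.7 and 21.6 TPM in knockout against 36.7 and 34.9 TPM in control. The genotypes were well apart, with means of 21.6 ± 0.0386 TPM in knockout and 35.8 ± 1.28 TPM in control (SD, n = 2 each), 1.65-fold lower (log2 change −0.70, SE 0.0774, limma adjusted p = 0.00219). The calls of Etv3, Kcnk5 and Lif were kept whichever single library was left out, with adjusted p of at most 0.0246, 0.0215 and 0.0451.

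Gadd45g encodes a small stress-inducible protein that binds the kinase MAP3K4 and acts upstream of p38 and JNK. Around it, the window (gene at chr13:51846675-51848474, plus strand) held 31 regions, with a peak in 22 and 20 in the knockout lists against 24 and 24 in the control lists. The strongest of its 4 control-only regions, chr13:51857493-51857729, lay 10.9 kb downstream of the start with a −log10 q of 30.4 and 27.8. The window also had 3 knockout-only regions, of which chr13:51845612-51845856 lay 0.941 kb upstream of the start (13.2 and 11.6 in the knockout lists). Gadd45g RNA was 11.98 and 10.8 TPM in knockout against 11.3 and 8.13 TPM in control. The groups overlapped, and means of 11.4 ± 0.834 TPM in knockout and 9.72 ± 2.25 TPM in control (SD, n = 2 each) were not separated by the test (log2 change 0.22, 95% interval −0.23 to 0.67, limma adjusted p = 0.366). With every peak of all 4 lists at a −log10 q of 10 or more it met the rule, but in part through regions whose weak knockout peaks the cut removed. Of these, chr13:51829314-51829586 had a peak in all 4 lists (8.94 and 8.15 in knockout). The RNA of Gadd45g was not called in any alternative fit.

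Galnt3 encodes a GalNAc transferase that starts mucin-type O-glycosylation, known for protecting the hormone FGF23 from cleavage. The window of the gene (chr2:66082766-66124793, minus strand) was the smallest in regions, with 14, and a peak in 9 and 6 in the knockout lists against 9 and 10 in the control lists. It held 2 knockout-only and 4 control-only regions, 3 of the 4 upstream of the start and the strongest inside the gene at chr2:66117764-66118103 (−log10 q 20.8 and 16.1). Galnt3 RNA was 4.83 and 3.59 TPM in knockout against 3.61 and 2.60 TPM in control. The groups overlapped, and means of 4.21 ± 0.879 TPM in knockout and 3.11 ± 0.713 TPM in control (SD, n = 2 each) were not separated by the test (log2 change 0.34, 95% interval −0.24 to 0.93, limma adjusted p = 0.289).

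Acot7 encodes a cytosolic thioesterase that cleaves long-chain acyl-CoA into fatty acid and coenzyme A. Its window (gene at chr4:152178100-152271855, plus strand) was the richest, with 49 regions and a peak in 38 and 36 in the knockout lists against 41 and 42 in the control lists. Of its 5 control-only regions, chr4:152179017-152179225 lay 1.02 kb (−log10 q 11.0 and 15.7) and chr4:152184422-152184636 6.43 kb into the gene (14.2 and 27.7). Another, upstream, was nearest to the start of Hes2 and overlapped it. Acot7 RNA was 182 and 184 TPM in knockout against 159 and 174 TPM in control. Both knockout libraries lay above both control libraries, a pattern that 5875 of the 13228 genes tested showed. Means of 183 ± 1.63 TPM in knockout and 167 ± 10.8 TPM in control (SD, n = 2 each) did not pass the test (log2 change 0.13, 95% interval −0.0062 to 0.28, limma adjusted p = 0.112). Under quantile normalization the change had the opposite sign (−0.040). Of the 9 RefSeq promoter entries of 8 members, that of Acot7 was the only one with the TCF/LEF letters, which 16% of all promoters held. It belongs to a start 7508 bp inside the span the files give, at chr4:152185358-152185607 on the plus strand, and also held the ETS and RUNX letters. In the sequence the TCF/LEF and ETS letters are on the reverse strand.
Acot7: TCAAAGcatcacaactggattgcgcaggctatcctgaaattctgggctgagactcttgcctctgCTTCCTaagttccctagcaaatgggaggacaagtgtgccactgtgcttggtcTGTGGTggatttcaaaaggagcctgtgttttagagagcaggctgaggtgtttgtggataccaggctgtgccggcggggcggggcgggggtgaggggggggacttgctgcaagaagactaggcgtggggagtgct

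**Figure D4:**
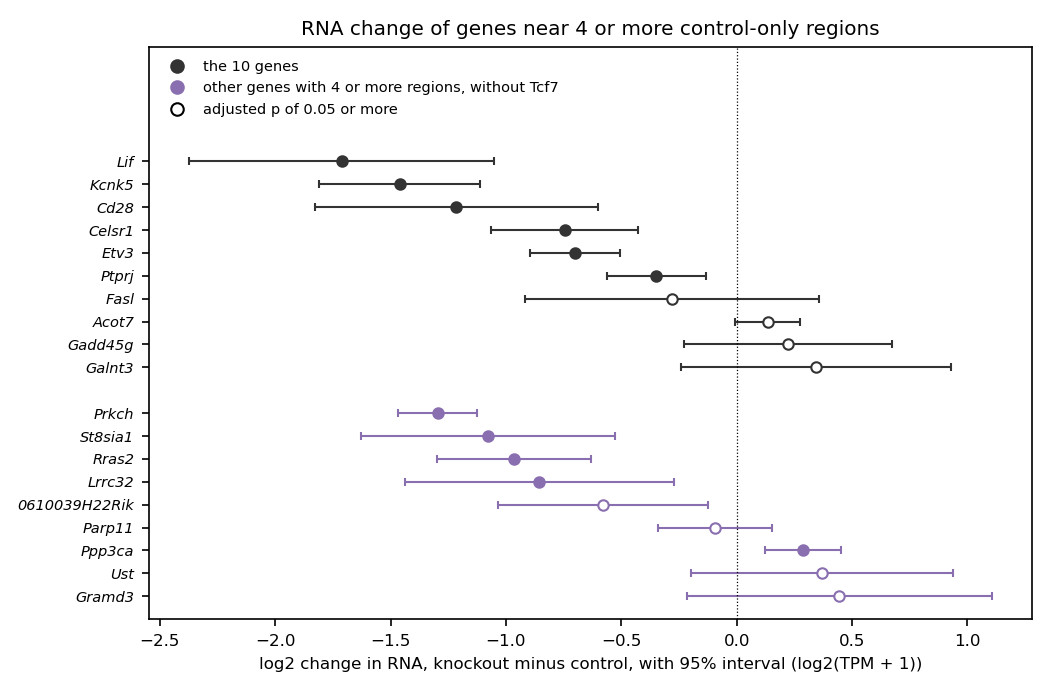
log2 change in RNA with 95% intervals (knockout minus control, log2(TPM + 1)) for the 10 genes (dark) and for the other tested genes near 4 or more control-only regions without Tcf7 (purple); open circles did not pass the test. The 10 genes run from −1.71 (Lif) to 0.34 (Galnt3).

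The other 16 genes with 4 or more nearest control-only regions include Tcf7 itself, which had the most with 6. Of these 16 genes, 10 passed the filter on low values, 5 were called lower, 1 was called higher and 4 were not called, with a median log2 change of −0.72 over those tested. Besides Tcf7, the lower ones were Prkch, a protein kinase C of T cells (−1.30), St8sia1, a sialyltransferase (−1.08), Rras2, a Ras-like GTPase (−0.97), and Lrrc32, which encodes a docking protein for latent TGF-beta (−0.85). Ppp3ca, a catalytic subunit of calcineurin, was the higher one (0.29). The calls of Lrrc32 and Ppp3ca were lost whichever library was left out, and that of St8sia1 without either control library or without knockout library 1. The share of tested genes called lower climbed with the number of nearest control-only regions. It was 13.1% of 10880 genes with none, 19.47% of 1921 with 1, 30.24% of 334 with 2, 39.73% of 73 with 3 and 55% of 20 with 4 or more. Cd28 and Lif are among those 20 and passed the filter through the control libraries alone. Over genes that averaged at least 1 TPM in knockout, the shares were 12.6%, 19%, 29.28%, 39.44% and, for the 18 genes left with 4 or more regions, 50%. With all 20 less Tcf7 the last share was 52.63%, and without the 10 genes 50%. Leaving out 1 RNA library lowered both ends. The share was 30% without control library 1, 30% without control library 2 and at most 40% without a knockout library for genes with 4 or more regions, and 7.12% to 9.89% for genes with none. The share called higher ran the other way, at 26.19%, 21.55%, 17.37%, 12.33% and 5%. Grouping the same genes by knockout-only regions gave 14.23% to 18.62% called lower with 0 to 3 regions. With 4 or more it was 13.33% of 30 genes. The shares called higher in these groups were 24.56%, 26.58%, 28.12%, 36.51% and 20%, in order of the number of regions.

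**Figure D5:**
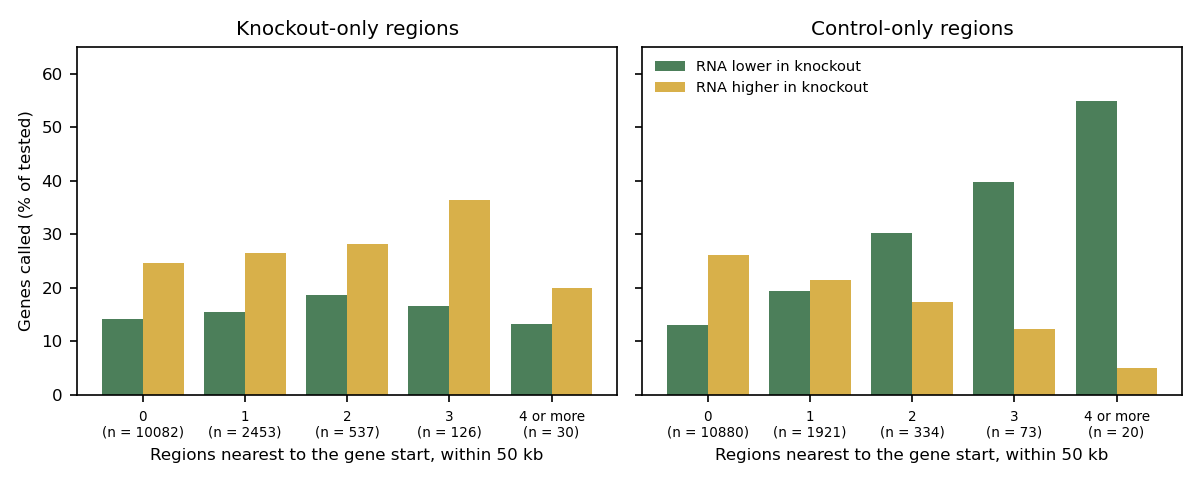
Percent of tested genes whose RNA was called lower (green) or higher (yellow) in knockout, by the number of knockout-only (left) or control-only (right) regions nearest to the gene start within 50 kb; n is the number of genes tested. In the right panel the lower calls are 55% of the 20 genes with 4 or more regions (50% of the 18 averaging at least 1 TPM in knockout, 30% to 40% of the 20 with 1 library left out), against 13.1% of genes with none (7.12% to 9.89% with 1 library left out).

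Genes of the same pathways, 121 in 10 lists, showed no shared direction. Of the 83 that passed the filter, 13 were called lower (15.7%) and 18 higher (21.7%), close to the shares over all genes. With TPM rescaled by median ratios, which put the median log2 change over all genes at −0.0071 in place of 0.09, these counts were 18 lower and 12 higher, and with quantile normalization 18 lower and 14 higher. Over all genes the counts were 1940 lower and 3331 higher, 2531 lower and 2413 higher with median ratios, and 2296 lower and 2608 higher with quantile normalization.

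Relatives of Lif included several that were lower. Of 10 tested genes of the LIF and interleukin-6 family list, 5 were lower and 1 higher (median log2 change −0.21). Socs3, the feedback inhibitor of this signalling, was 5.87 and 4.52 TPM in knockout against 18.2 and 19.3 TPM in control (log2 change −1.68, limma adjusted p = 0.00128). Il11ra1, the interleukin-11 receptor, was the higher one, at 42.2 and 41.4 TPM against 14.8 and 18.4 TPM (1.29). Osm, the oncostatin M gene and Lif's close relative, stood at 4.99 and 3.40 TPM against 9.34 and 11.7 TPM (−1.16, limma adjusted p = 0.0106), a call lost without control library 2 (adjusted p = 0.0741).

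Of 8 tested genes of the CD28 family and its ligands, 2 were lower and none higher (limma; 0 also at an unadjusted p under 0.05; median 0.08). Ctla4, the inhibitory relative of Cd28 that binds the same ligands, was 1.17 and 1.73 TPM in knockout against 11.7 and 14.7 TPM in control (log2 change −2.54, limma adjusted p = 0.00101). Icosl, the ligand of the related receptor ICOS, was lower by less (−0.80), and its call was lost whichever library was left out. Of 12 tested death receptor genes, 2 were lower and 4 higher (median 0.07). Tnfsf10, which encodes the death ligand TRAIL, was 7.53 and 9.11 TPM in knockout against 23.4 and 21.3 TPM in control (−1.33, limma adjusted p = 0.00161), while its receptor gene Tnfrsf10b (0.74) and the Fas inhibitor Faim (0.57) were higher. The call of Tnfrsf10b was lost under median-ratio scaling and without control library 2, knockout library 1 or knockout library 2.

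Among 8 tested receptor-type tyrosine phosphatases, 3 were lower and none higher (limma; 3 higher at an unadjusted p under 0.05; median −0.11). Ptprf stood at 0.502 and 0.316 TPM in knockout against 6.63 and 6.83 TPM in control (log2 change −2.46, limma adjusted p = 0.00116). It averaged under 1 TPM in knockout and passed the filter on low values through the control libraries. Ptprc, which encodes CD45, was lower by less (−0.69), as was Ptpre (−0.28), whose call was lost without control library 1. Unlike Celsr1, the planar cell polarity list had 5 of 12 tested genes higher and none lower (limma; 1 lower at an unadjusted p under 0.05; median 0.31). Vangl1 (0.97), Ankrd6 (0.73) and Ptk7 (0.60) led it, and of these Ptk7 alone was called whichever library was left out. Of 5 tested ETS repressors and relatives of Etv3, 1 was lower and 3 higher (median 0.36). Etv4, at 4.82 and 3.98 TPM in knockout against 0.345 and 0.456 TPM in control, rose by 1.94 and Etv5 by 1.68 on the log2 scale, while Elk3 was lower (−0.43). Etv4 averaged under 1 TPM in control and passed the filter through the knockout libraries. Etv4 and Etv5 are known as transcriptional activators, and Elk3 as a repressor.

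Lists for Kcnk5, Gadd45g, Galnt3 and Acot7 held 5 calls in all, each of them higher. Among 3 tested tandem-pore potassium channels, Kcnk12 was higher (0.55), a call lost without either control library or without knockout library 1, and the other 2 were not called. Of 6 genes of the GADD45 list, Gadd45gip1 (0.45) and Pcna (0.26) were higher and 4 were not called. The call of Gadd45gip1 was lost without knockout library 1, and that of Pcna without control library 1 and under both rescalings. Of 13 tested genes of mucin-type O-glycosylation, Galnt10 (0.37) and Galnt1 (0.21) were higher, calls lost under both rescalings and whichever library was left out. None of 6 tested acyl-CoA thioesterases was called in either direction (limma; 1 higher at an unadjusted p under 0.05).

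Other genes share the windows. Of 16 such genes, 10 passed the filter, 4 were called lower, 2 higher and 4 were not called. Over all genes tested, 14.7% were called lower and 25.2% higher. In the Lif window Osm, 16542 bp from Lif, was lower, as given above. In the Celsr1 window directions differed. Gramd4 was lower (log2 change −0.50), while Gtse1, a mitotic regulator, was higher (1.11), as was Trmu, a tRNA-modifying enzyme (0.60), a call lost without control library 2 or knockout library 2. Suco in the Fasl window (−0.51) and Espn in the Acot7 window (−0.79) were lower beside members that were not called, and the call of Espn was lost whichever library was left out.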

How the data were processed

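RNA-seq and ATAC-seq were each measured in 2 knockout and 2 control libraries, grouped by sample title. The submitters' processing notes name HISAT2 and StringTie for RNA, Bowtie2 and MACS2 for ATAC, and mm10, without versions or thresholds; each library has its own peak list. The authors deposited TPM, which sums to 1000000 per library, FPKM (an alternative here) and coverage per base, per the file headers. The coverage-to-FPKM ratio usual for a library was 2.64 and 2.63 in knockout against 2.41 and 2.12 in control, which follows depth. The deposited peak lists give a score, a fold enrichment ratio, −log10 p and −log10 q and a summit offset; of these −log10 q was used, within lists. Read counts were not used here, so counting error per gene and ATAC depth are unknown. Regions were merged in pandas 2.3.3 and each assigned by its midpoint to the nearest gene start.

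The RNA test was limma 3.58.1 (lmFit, eBayes with trend; R 4.3.3) on log2(TPM + 1). It covered 13228 genes averaging at least 1 TPM, modelled genotype alone, and called genes at a Benjamini-Hochberg adjusted p under 0.05 over all of them. The code was tested on simulated data. The 10 genes, the pathway and marker lists and the tests were chosen with earlier results of these data known. Named genes are Tcf7, Lef1, the 10 genes, up to 3 called genes per pathway list and per window by size of change, and, chosen after their values were seen, the called genes of the rule outside the 10. Alternatives were pseudocount, filters, scalings, FPKM, each library left out, replicate block, peak threshold, overlap and distance. RefSeq promoter entries (GRCm38.p6) matched 8 of the 10 genes; Cd28 and Celsr1 had none. Which regions are exonic or intronic was not analysed here, nor the sequence of the distal regions. No source used here states a stranded quantification.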

Additional observations from a re-analysis of the deposited data

How the results depend on the processing

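Leaving out 1 RNA library at a time gave 1100 to 1496 genes called lower and 2019 to 2304 called higher in place of 1940 and 3331, 3 to 5 of the 10 genes lower in place of 6, 8 to 12 pathway genes lower in place of 13 and 8 to 11 higher in place of 18. The share called lower was then 30% to 40% of genes with 4 or more nearest control-only regions (55% with all libraries) and 7.12% to 9.89% of genes with none (13.1%). A lone library was assumed to vary like the other group. Without a filter on low values 11 pathway genes were higher, and 6.37% of genes with no control-only region were lower. No member was called higher under any RNA alternative. Leaving out 1 ATAC list at a time, which makes a region easier to call, gave 56 to 62 control-only regions in the windows (49 with all lists), 20 to 26 knockout-only (16), 47 to 51 counted by the rule (43) and 58 to 102 genes with 4 or more (26). With every peak at a −log10 q of at least 10 these were 32, 7, 24 and 17. This cut held for all 4 lists, so regions whose peaks of the other genotype were weak became control-only or knockout-only. Knockout-only regions numbered 26 with 100 kb and 10 with 20 kb either side, and 74 genes met the rule within 100 kb. The log2 change of Acot7 was −0.040 under quantile normalization, and that of Lef1 ran from −0.081 to 0.26 with 1 library left out, below 0 without control library 2; the cause was not tested. Replicate numbers gave no pairing (correlation of the same-numbered deviations 0.0043); with the replicate block 1798 genes were lower and 3072 higher, and 6 of the 10 genes were lower. With 2 libraries per group, small changes of low genes such as Fasl were not resolved.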

Other observations

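The deposited coverage of Acot7 was low for its FPKM. Its ratio of coverage to FPKM was 6.75% of the ratio usual for the library in each knockout library, against 6.77% and 6.75% in the control libraries. Of 11008 genes above 1 FPKM in every library, 73 (0.663%) had a ratio under 10% of the usual in all 4 libraries. The other 9 genes stood at 74.3% or more, with Lif at 74.3% and 75.8% in knockout against 75.8% and 74.3% in control. The ratio was alike in both genotypes.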
